A study of Mus musculus with 16 samples.

Results

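A set of 10 genes of the transforming growth factor beta (TGF-beta) pathway was described across all 16 libraries of the series: the ligands Tgfb1, Tgfb2 and Tgfb3, the ligand-handling genes Itgb8 and Nrros, the receptors Tgfbr1 and Tgfbr2, and the intracellular mediators Smad2, Smad3 and Smad7. They were chosen by symbol from the deposited count table, which held 10 of 10 of them among 54532 entries, and 10 of 10 passed the filter on low counts, which kept 17736 genes. Brain tissue of female mice, aged 9 months, was sequenced in 4 groups of 4 libraries. Mice with intact Ch25h formed the groups Ch25h+/+ Tau- and Ch25h+/+ Tau+, and knockout mice formed the groups Ch25h-/- Tau- and Ch25h-/- Tau+. Ch25h encodes cholesterol 25-hydroxylase, an interferon-induced enzyme that makes 25-hydroxycholesterol. The series title places it between innate immune signalling and tau pathology. The labels give the tissue as frontal cortex and the series text gives hippocampus. They do not give the tau transgene, its promoter, or the design of the Ch25h allele, and whether the mice of a group were littermates is not given in the sources used here.

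TGF-beta ligands are secreted in a latent form, wrapped in a propeptide that must be opened before the ligand can bind. The integrin that contains the Itgb8 chain opens it, and Nrros, also called LRRC33, is a membrane protein of microglia and macrophages that holds latent TGF-beta 1 at the cell surface. Active ligand brings the type II receptor Tgfbr2 and the type I receptor Tgfbr1 together, and Tgfbr1 then phosphorylates Smad2 and Smad3, which enter the nucleus with Smad4. Smad7 is induced by the pathway and inhibits it. In the brain, TGF-beta signalling is known for keeping microglia in their homeostatic state.

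Tgfb1 and Tgfbr2 were higher in Tau+ than in Tau- libraries of Ch25h+/+ mice, and both were lower in Ch25h-/- Tau+ than in Ch25h+/+ Tau+ libraries. Tgfbr1 also rose with tau in Ch25h+/+ mice, and Nrros fell with Ch25h loss in Tau+ mice. The same tau contrast in Ch25h-/- mice moved none of the 10 genes past the threshold, an adjusted p of 0.05 by edgeR's quasi-likelihood test. Of all genes tested, 0.0395% were called in that contrast. The difference between these tau effects was tested as an interaction and was not past the threshold for any of the 10 genes. Tgfb2, Tgfb3, Itgb8, Smad2, Smad3 and Smad7 were not past it in any of the 5 comparisons.

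The table of the whole series was checked before these results. Depth was 15530352 to 25602500 counts per library. No read was counted for Ch25h in any of the 8 Ch25h-/- libraries (0 counts, which allows up to 3), and the 8 Ch25h+/+ libraries held 0.216 to 1.26 CPM, which are counts scaled to a fixed library total. Prnp, the prion protein gene, was higher in Tau+ than in Tau- libraries by 1.10 on the log2 scale in each genotype, without overlap. Mapt, the mouse tau gene, did not differ with tau status past the threshold. Summed cortex markers reached 629 to 851 CPM and hippocampus markers 117 to 274 CPM, so markers of both tissues were present in every library. In 7 of the 8 Ch25h-/- libraries the ribosomal RNA transcript CT010467.1 stood at 2289 to 5684 CPM of total counts, against 111 to 475 CPM in the other 9 libraries. These are called rRNA-rich and rRNA-poor libraries here. Ch25h-/- Tau+ replicate 1 was the only rRNA-poor Ch25h-/- library, so genotype and this class can hardly be told apart.

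Sequence upstream of the start site is shown for the 4 genes that passed the threshold in any comparison, Tgfb1, Nrros, Tgfbr1 and Tgfbr2. Each window is the 250 bases before the RefSeq start in the build GRCm38.p6, written 5′ to 3′ on the gene's own strand, with matches to the searched motifs in capitals. RefSeq windows were found for 7 of the 10 genes. The windows lie at chr7:25686752-25687001 on the plus strand for Tgfb1, chr16:32165595-32165844 on the minus strand for Nrros, chr4:47352972-47353221 on the plus strand for Tgfbr1 and chr9:116175364-116175613 on the minus strand for Tgfbr2.
Tgfb1: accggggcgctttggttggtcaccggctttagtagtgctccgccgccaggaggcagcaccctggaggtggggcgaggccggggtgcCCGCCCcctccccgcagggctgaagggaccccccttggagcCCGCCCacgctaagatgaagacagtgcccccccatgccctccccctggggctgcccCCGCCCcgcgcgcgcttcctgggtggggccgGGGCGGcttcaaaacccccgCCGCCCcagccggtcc
Nrros: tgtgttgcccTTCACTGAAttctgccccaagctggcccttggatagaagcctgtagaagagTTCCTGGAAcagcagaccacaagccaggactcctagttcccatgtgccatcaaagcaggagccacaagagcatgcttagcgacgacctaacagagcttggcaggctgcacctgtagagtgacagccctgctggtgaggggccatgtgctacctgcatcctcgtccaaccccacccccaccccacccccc
Tgfbr1: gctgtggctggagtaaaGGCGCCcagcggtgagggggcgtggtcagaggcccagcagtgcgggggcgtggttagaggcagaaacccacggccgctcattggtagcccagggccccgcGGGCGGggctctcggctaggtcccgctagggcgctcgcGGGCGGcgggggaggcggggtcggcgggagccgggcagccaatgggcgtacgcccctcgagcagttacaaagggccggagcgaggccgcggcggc
Tgfbr2: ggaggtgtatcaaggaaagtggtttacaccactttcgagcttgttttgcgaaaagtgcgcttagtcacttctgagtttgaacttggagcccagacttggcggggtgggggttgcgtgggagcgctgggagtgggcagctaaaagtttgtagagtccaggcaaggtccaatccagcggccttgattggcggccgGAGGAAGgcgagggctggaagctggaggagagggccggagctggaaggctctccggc

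The GC box was found in the Tgfb1 and Tgfbr1 windows and not in those of Nrros and Tgfbr2. The motifs searched, on both strands, were the GC box GGGCGG (present in 33.0% of 32536 windows of the same length), the PU.1 core GAGGAAG (10.7%), the gamma-activated site TTCNNNGAA (7.04%), the core of the interferon-stimulated response element (2.98%), the AP-1 site TGANTCA (6.73%) and the SMAD elements CAGACA (17.0%), GTCTAGAC (0.169%) and GGCGCC (9.65%). The Tgfb1 window, 75.2% GC, held 5 GC boxes, at 164, 123, 67, 36 and 16 bases before the start. The Nrros window, 58.4% GC, held 2 matches to the gamma-activated site, TTCACTGAA at 240 and TTCCTGGAA at 189 bases before the start. The Tgfbr1 window, 74.8% GC, held GC boxes at 133 and 95 bases and GGCGCC at 233 bases before the start. The Tgfbr2 window, 58.4% GC, held GAGGAAG at 57 bases before the start. The matches did not overlap each other. A match describes letters in the window and is no evidence of binding.

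Among the ligands, Tgfb1 was the gene that moved. Tgfb1 encodes the ligand that is best known from immune cells and microglia, and it lies at chr7:25687002-25705077 on the plus strand of GRCm38. In Ch25h+/+ Tau- libraries its level was 7.62, 7.44, 9.75 and 7.25 CPM (8.02 ± 1.17, SD, n = 4). In Ch25h+/+ Tau+ libraries it was 14.2, 13.04, 13.2 and 18.6 CPM (14.8 ± 2.63, SD, n = 4). In Ch25h-/- Tau- libraries it was 8.55, 8.82, 6.03 and 9.65 CPM (8.26 ± 1.56, SD, n = 4), and in Ch25h-/- Tau+ libraries 8.49, 8.90, 7.56 and 9.56 CPM (8.63 ± 0.837, SD, n = 4). All 4 Ch25h+/+ Tau+ libraries lay above every library of the other groups, and those other groups overlapped each other. These levels rest on 100 to 399 counts per library.

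With tau in Ch25h+/+ mice, Tgfb1 rose 1.84-fold (log2 fold change 0.88, 95% interval 0.55 to 1.20, edgeR adjusted p = 0.00362). With tau in Ch25h-/- mice the log2 fold change was 0.06 (95% interval -0.27 to 0.39). Tgfb1 fell with Ch25h loss in Tau+ mice to 0.584 of its level (log2 fold change -0.78, interval -1.10 to -0.45, edgeR adjusted p = 0.0138), while in Tau- mice the log2 fold change was 0.04. The interaction was -0.82 on the log2 scale (interval -1.28 to -0.35), with an unadjusted p of 0.00161 and an edgeR adjusted p of 0.334. The call on Ch25h loss in Tau+ mice was lost without Ch25h+/+ Tau+ replicate 4, the highest library (-0.65, edgeR adjusted p = 0.063), and without Ch25h-/- Tau+ replicate 3 (-0.73, 0.060). The rise with tau in Ch25h+/+ mice was called with each of the 16 libraries left out in turn.

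Tgfb2, a ligand of neural and mesenchymal development, varied within every group. In Ch25h+/+ mice it was 9.93, 10.9, 18.1 and 13.8 CPM without tau (13.2 ± 3.68, SD, n = 4) and 8.25, 18.7, 13.1 and 17.6 CPM with tau (14.4 ± 4.76). In Ch25h-/- mice it was 12.6, 15.4, 18.7 and 14.2 CPM without tau (15.2 ± 2.58) and 9.04, 9.10, 16.4 and 20.4 CPM with tau (13.7 ± 5.62). The groups overlapped in all 4 comparisons, and the tau effect in Ch25h+/+ mice was 0.13 on the log2 scale (95% interval -0.43 to 0.70). The summed choroid plexus markers, 14.8 to 2727 CPM, also varied within every group. Across the 16 libraries the level of Tgfb2 ran with the choroid plexus score at Pearson r = 0.74, and at 0.81 with the group means taken out. The part of choroid plexus in the spread of Tgfb2 was not tested.

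Tgfb3, a ligand with roles in palate and vessel development, was the steadiest ligand. Its level was 16.4 ± 0.394 CPM without and 16.1 ± 1.89 CPM with tau in Ch25h+/+ mice, and 13.8 ± 1.46 CPM without and 15.6 ± 1.63 CPM with tau in Ch25h-/- mice (SD, n = 4 each). In Tau- mice the Ch25h-/- libraries, 12.7 to 15.9 CPM, lay just below the Ch25h+/+ libraries, 15.99 to 16.9 CPM, and on total-count CPM the groups overlapped. That difference, -0.25 on the log2 scale (interval -0.47 to -0.03), was not past the threshold (edgeR adjusted p = 0.187). Exons of Tgfb2 and Tgfb3 share bases with transcripts on the opposite strand, Gm29491 for Tgfb2 and Gm37804 and Gm48008 for Tgfb3, and these had at most 6 counts in any library.

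**Figure D1:**
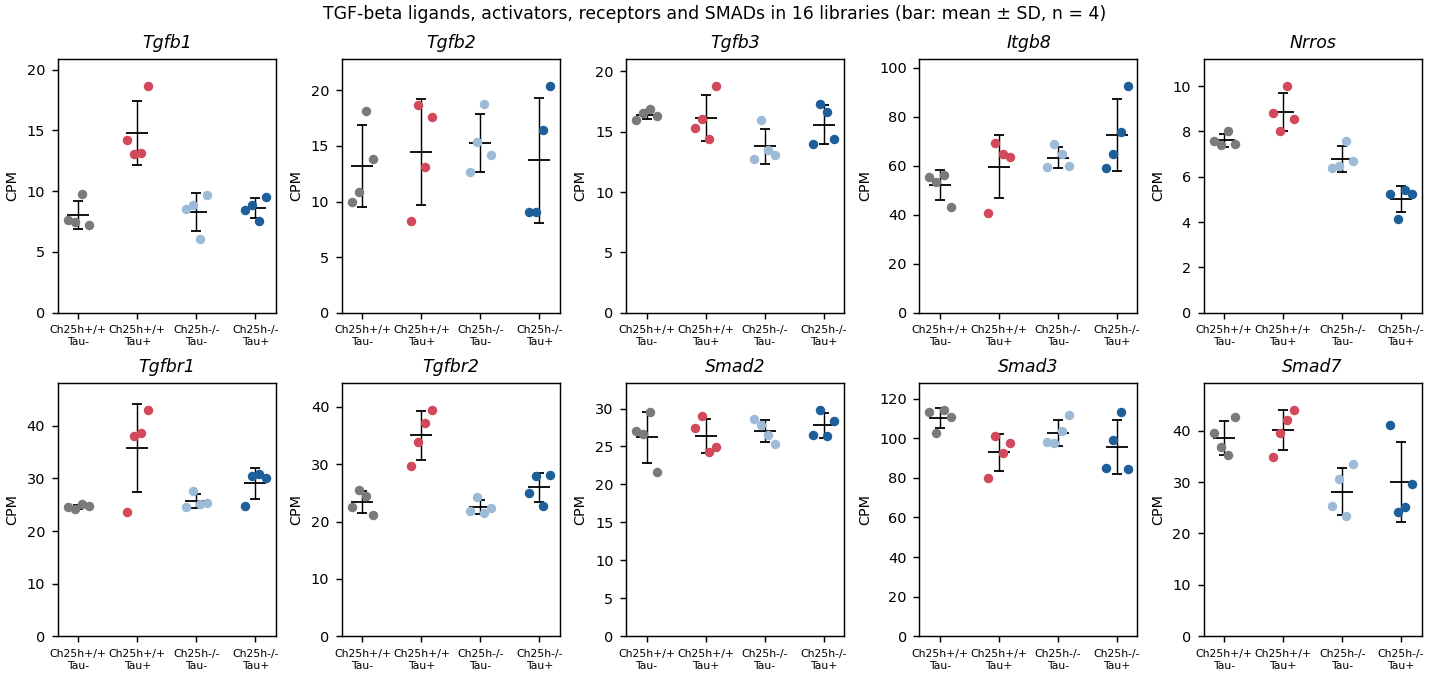
Level of each of the 10 genes in CPM (y axis, linear from 0) by group (x axis), 1 point per library, with the mean and SD of the 4 libraries as bars. For Tgfb1 the Ch25h+/+ Tau+ points, 13.04 to 18.6 CPM, lie above all others, and for Nrros the Ch25h-/- Tau+ points, 4.16 to 5.40 CPM, lie below all others.

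Of the genes that present or open the latent ligand, Nrros fell in the Ch25h-/- Tau+ group. Nrros lies at chr16:32142785-32165594 on the minus strand. Its level was 7.58, 7.38, 8.03 and 7.46 CPM in Ch25h+/+ Tau- (7.61 ± 0.288, SD, n = 4) and 8.81, 8.04, 9.99 and 8.54 CPM in Ch25h+/+ Tau+ (8.85 ± 0.830). It was 6.39, 6.47, 7.59 and 6.69 CPM in Ch25h-/- Tau- (6.79 ± 0.554) and 5.24, 4.16, 5.40 and 5.25 CPM in Ch25h-/- Tau+ (5.01 ± 0.573). The 4 Ch25h-/- Tau+ libraries were the lowest of the 16. The 2 Tau- groups overlapped each other. Counts of Nrros were 64 to 215 per library.

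Nrros fell with Ch25h loss in Tau+ mice to 0.568 of its level (log2 fold change -0.82, 95% interval -1.07 to -0.56, edgeR adjusted p = 0.00151), which placed it 30th by p among the 17736 genes. In Tau- mice the same contrast gave -0.17 (edgeR adjusted p = 0.446). The tau effect on Nrros was 0.22 in Ch25h+/+ mice (interval -0.03 to 0.46, edgeR adjusted p = 0.647) and -0.43 in Ch25h-/- mice (interval -0.69 to -0.17), where the unadjusted p was 0.00242 and the adjusted p was 0.999984 by edgeR. In Ch25h-/- mice all Tau+ libraries lay below all Tau- libraries. In Ch25h+/+ mice the groups met, at 8.03 CPM in the highest Tau- and 8.04 CPM in the lowest Tau+ library, and on total-count CPM they overlapped (7.97 and 7.96). The interaction, -0.65 on the log2 scale (interval -1.01 to -0.29), had an unadjusted p of 0.00128 and an edgeR adjusted p of 0.299.

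Itgb8, the integrin chain that opens latent TGF-beta and is known from astrocytes and neural progenitors, did not pass the threshold in any comparison. It lies at chr12:119158022-119238802 on the minus strand. Its level was 55.4, 53.5, 56.4 and 43.0 CPM in Ch25h+/+ Tau- (52.1 ± 6.15, SD, n = 4) and 40.7, 69.1, 64.8 and 63.5 CPM in Ch25h+/+ Tau+ (59.5 ± 12.8). In Ch25h-/- libraries it was 59.6, 68.8, 64.6 and 59.9 CPM without tau (63.2 ± 4.34) and 58.9, 64.8, 73.8 and 92.4 CPM with tau (72.5 ± 14.6). The Ch25h-/- Tau- libraries all lay above the Ch25h+/+ Tau- libraries, with a log2 fold change of 0.28 (interval -0.03 to 0.59, edgeR adjusted p = 0.292). Ch25h+/+ Tau+ replicate 1, the low library of its group for Itgb8, also had the lowest astrocyte marker sum of the 16 libraries, 2765 CPM of a range that reached 4990 CPM.

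Both receptors were higher with tau in Ch25h+/+ mice. Tgfbr2, the receptor that binds ligand first, lies at chr9:116084293-116175360 on the minus strand. It stood at 22.5, 25.5, 24.4 and 21.2 CPM in Ch25h+/+ Tau- (23.4 ± 1.92, SD, n = 4) and at 29.6, 33.8, 37.2 and 39.5 CPM in Ch25h+/+ Tau+ (35.02 ± 4.28). It stood at 21.9, 24.3, 21.5 and 22.4 CPM in Ch25h-/- Tau- (22.5 ± 1.26) and at 24.9, 27.9, 22.8 and 28.2 CPM in Ch25h-/- Tau+ (25.9 ± 2.56). As for Tgfb1, the Ch25h+/+ Tau+ libraries lay above all 12 others, and the other 3 groups overlapped.

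Tgfbr2 rose 1.499-fold with tau in Ch25h+/+ mice (log2 fold change 0.58, 95% interval 0.38 to 0.79, edgeR adjusted p = 0.00260) and fell to 0.739 of its level with Ch25h loss in Tau+ mice (-0.44, interval -0.64 to -0.23, edgeR adjusted p = 0.0275). In Ch25h-/- mice its tau effect was 0.20 (interval -0.01 to 0.41). The interaction was -0.38 (interval -0.68 to -0.08, edgeR adjusted p = 0.856). The fall with Ch25h loss was no longer called without Ch25h+/+ Tau+ replicate 4 (-0.38, edgeR adjusted p = 0.094), without Ch25h-/- Tau+ replicate 3 (-0.39, 0.096) or in a fit of only the 8 Tau+ libraries (-0.44, 0.105). The rise with tau was called with each of the 16 libraries left out in turn.

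Tgfbr1, the receptor kinase that phosphorylates Smad2 and Smad3, lies at chr4:47353222-47414931 on the plus strand. It was 24.6, 24.1, 25.1 and 24.7 CPM in Ch25h+/+ Tau- (24.6 ± 0.406, SD, n = 4) and 23.7, 38.0, 38.6 and 43.0 CPM in Ch25h+/+ Tau+ (35.9 ± 8.40). It was 24.6, 27.6, 25.2 and 25.3 CPM in Ch25h-/- Tau- (25.7 ± 1.34) and 24.8, 30.5, 30.9 and 30.2 CPM in Ch25h-/- Tau+ (29.1 ± 2.89). In Ch25h+/+ Tau+ mice 3 of the 4 libraries were high, and replicate 1, at 23.7 CPM, lay below all 4 Ch25h+/+ Tau- libraries, so these groups were not separated.

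Tgfbr1 rose 1.46-fold with tau in Ch25h+/+ mice (log2 fold change 0.54, interval 0.27 to 0.82, edgeR adjusted p = 0.0395). Leaving out 1 library at a time ended this call in 8 of 16 fits, with the largest adjusted p, 0.198, without Ch25h+/+ Tau+ replicate 4, and a fit of only the 8 Ch25h+/+ libraries also ended it (edgeR adjusted p = 0.162). Tgfbr1 was -0.31 on the log2 scale with Ch25h loss in Tau+ mice (interval -0.58 to -0.03, edgeR adjusted p = 0.163). That difference was called without Ch25h+/+ Tau+ replicate 1 (-0.47, edgeR adjusted p = 0.009) and with limma-voom (-0.40, adjusted p = 0.015).

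The SMADs were not past the threshold in any comparison. Smad2 was nearly level, at 26.2 ± 3.34 CPM without and 26.4 ± 2.21 CPM with tau in Ch25h+/+ mice, and at 27.1 ± 1.49 CPM without and 27.8 ± 1.61 CPM with tau in Ch25h-/- mice (SD, n = 4 each). Its tau effect in Ch25h+/+ mice was 0.01 on the log2 scale, and the 95% interval of -0.19 to 0.21 bounds the size of a change. Smad3, which lies at chr9:63646767-63757994 on the minus strand, was 113, 103, 114 and 111 CPM in Ch25h+/+ Tau- and 80.1, 101, 92.5 and 97.8 CPM in Ch25h+/+ Tau+. Those Tau+ libraries all lay below the Tau- libraries, with a log2 fold change of -0.25 (interval -0.44 to -0.05), an unadjusted p of 0.0161 and an edgeR adjusted p of 0.331. In Ch25h-/- libraries Smad3 was 103 ± 6.48 CPM without tau and 95.5 ± 13.7 CPM with tau (SD, n = 4 each).

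Smad7, the inhibitory SMAD, had lower means in both Ch25h-/- groups, short of the threshold. It was 39.5, 36.9, 35.2 and 42.7 CPM in Ch25h+/+ Tau- (38.6 ± 3.26, SD, n = 4) and 34.9, 39.5, 42.0 and 44.0 CPM in Ch25h+/+ Tau+ (40.1 ± 3.95). It was 25.2, 30.5, 23.4 and 33.5 CPM in Ch25h-/- Tau- (28.2 ± 4.66) and 41.1, 24.2, 25.2 and 29.6 CPM in Ch25h-/- Tau+ (30.02 ± 7.73). The Tau- groups did not overlap. In Tau+ mice 3 Ch25h-/- libraries lay below all Ch25h+/+ libraries, and replicate 1, the rRNA-poor one, lay among them at 41.1 CPM.

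For Smad7 the log2 fold change with Ch25h loss was -0.45 in Tau- mice (interval -0.76 to -0.14, edgeR adjusted p = 0.102) and -0.41 in Tau+ mice (interval -0.72 to -0.11, edgeR adjusted p = 0.104). With the class of ribosomal RNA content as a covariate the values were 0.19 and 0.03, of the opposite sign. These values rest on Ch25h-/- Tau+ replicate 1 alone, the only library that separates class from genotype. Without Ch25h-/- Tau+ replicate 1, which leaves no rRNA-poor Ch25h-/- library, both were past the threshold (-0.45, edgeR adjusted p = 0.045, and -0.62, 0.010). With limma-voom both were also past it (-0.43, adjusted p = 0.039, and -0.57, 0.010). These settings called more of all genes, 2.78% and 9.42% without that library and 7.83% and 10.6% with limma-voom, against 1.03% and 3.55%. In Tau- mice the class and the genotype cannot be told apart.

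For Nrros, Tgfb1 and Tgfbr2 in Tau+ mice, the comparison of the 1 rRNA-poor Ch25h-/- library with the 4 Ch25h+/+ libraries, with the spread pooled over the fit, gave -0.75, -0.80 and -0.49. These sizes were close to those of all libraries, and with 1 library in an arm none of the 3 was called, where 0.0169% of all genes were (edgeR adjusted p = 0.606, 0.805 and 0.910). The class as a covariate gave the same values and no calls (edgeR adjusted p = 0.437, 0.767 and 0.769), where 0.0564% of all genes were called. That fit rests on the same 1 library, so its values were fixed in advance and are not a second observation. Over all alternatives to these 3 calls the adjusted p ran from 1.50e-06 to 0.606 for Nrros, from 0.000221 to 0.805 for Tgfb1 and from 0.00244 to 0.910 for Tgfbr2. For the rise of Tgfbr1 with tau it ran from 0.000159 to 0.198. The Ch25h+/+ libraries were all rRNA-poor, so the tau effects in Ch25h+/+ mice do not cross this class.

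**Figure D2:**
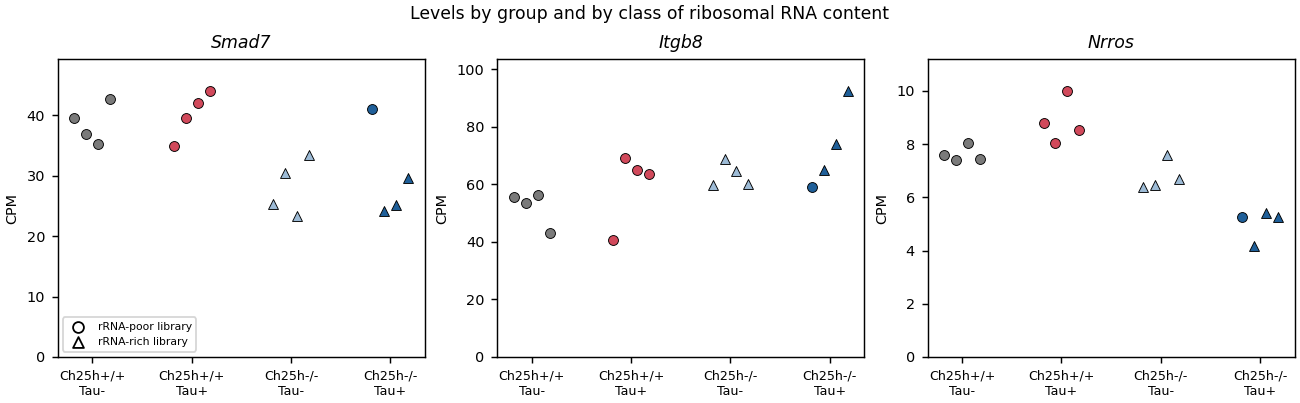
Level of Smad7, Itgb8 and Nrros in CPM (y axis, linear from 0) by group (x axis), 1 point per library, with rRNA-rich libraries as triangles and rRNA-poor libraries as circles. The 1 rRNA-poor Ch25h-/- library is at 41.1 CPM for Smad7, among the Ch25h+/+ libraries, and at 5.24 CPM for Nrros, among the other Ch25h-/- Tau+ libraries.

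Counts over the 10 genes stood against the background of all genes as follows. For tau in Ch25h+/+ mice 3 of 10 were higher and 0 lower. Of all genes tested 1.56% were called and 1.47% were called higher, and 0.892% were called without Ch25h+/+ Tau+ replicate 4. At an unadjusted p under 0.05 stood 4 of 10, against 9.38% of all genes, and 4 of 10 had no overlap (Tgfb1, Nrros, Tgfbr2 and Smad3), against 5.86%. On CPM from total counts it was 3 of 10, without Nrros. For tau in Ch25h-/- mice 0 of 10 were called by edgeR and 0 by DESeq2, against 0.0395% of all genes by edgeR and 0.0789% by DESeq2. Nrros alone had an unadjusted p under 0.05 and no overlap there, 1 of 10 against 3.68% and 2.14% of all genes.

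For Ch25h loss in Tau+ mice 3 of 10 were lower and 0 higher, against 3.55% of all genes called and 2.40% called lower. The share of all genes called rested on single libraries, and ran from 0.602% without Ch25h+/+ Tau+ replicate 4 to 9.42% without Ch25h-/- Tau+ replicate 1. At an unadjusted p under 0.05 stood 5 of 10, against 23.9%, and 3 of 10 had no overlap, against 10.2%. For Ch25h loss in Tau- mice 0 of 10 were called by edgeR and 1, Smad7, by DESeq2, against 1.03% of all genes called by edgeR and 6.34% by DESeq2. With 1 library left out the edgeR share ran from 0.0167% without Ch25h+/+ Tau- replicate 1 to 7.25% without Ch25h+/+ Tau+ replicate 1. At an unadjusted p under 0.05 stood 2 of 10, against 20.9%, near the background, and 3 of 10 had no overlap, against 16.2% (2 of 10 on total-count CPM). The interaction called 0 of 10 by edgeR and 0 by DESeq2, against 0.0338% of all genes by edgeR and 0.310% by DESeq2, and 3 of 10 had an unadjusted p under 0.05, against 4.13%.

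The median log2 fold change of the 10 genes was 0.16 with tau in Ch25h+/+ mice, beside -0.01 over all genes, and 0.08 with tau in Ch25h-/- mice, beside 0.01. With Ch25h loss it was -0.20 in Tau+ mice, beside 0.00, and -0.01 in Tau- mice, beside 0.01. The tau contrast in Ch25h+/+ mice and the Ch25h contrast in Tau+ mice share the Ch25h+/+ Tau+ libraries, so the values of Tgfb1 and Tgfbr2 in them are not separate observations.

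**Figure D3:**
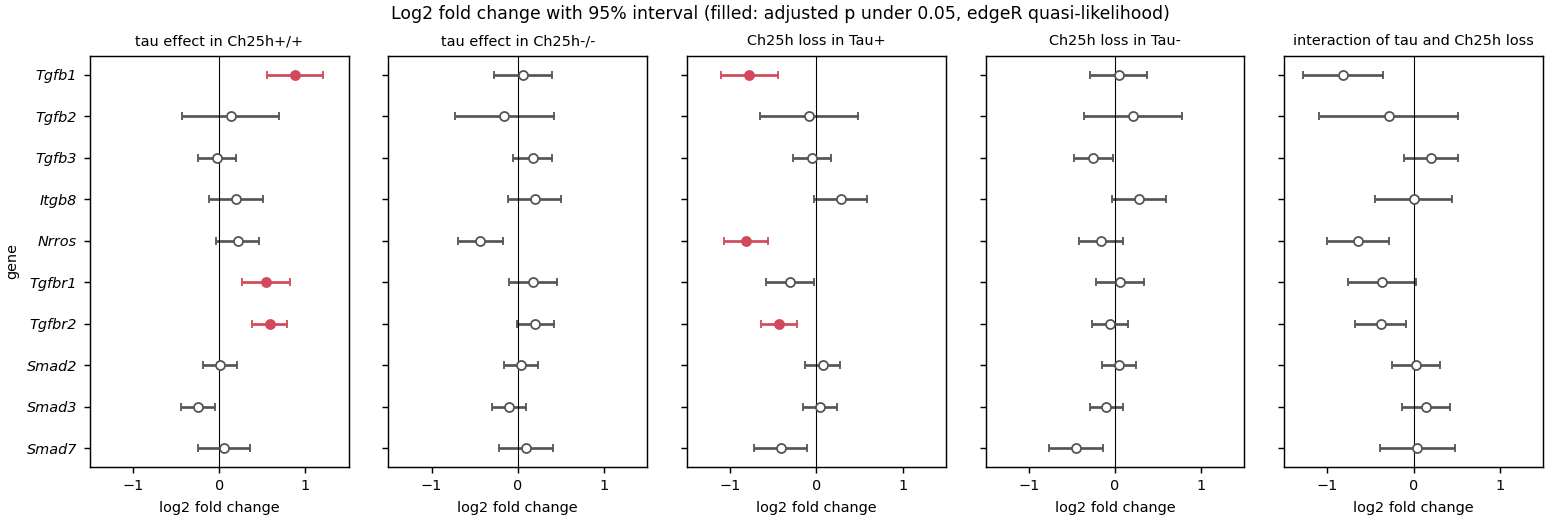
Log2 fold change (x axis) of each of the 10 genes (y axis) in the 4 comparisons between groups and the interaction, with 95% intervals as bars and filled points for an edgeR adjusted p under 0.05. Tgfb1, Tgfbr1 and Tgfbr2 are filled to the right for tau in Ch25h+/+ mice, Tgfb1, Nrros and Tgfbr2 to the left for Ch25h loss in Tau+ mice, and no point is filled elsewhere.

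Markers of microglia moved with the Tgfb1 and Tgfbr2 results, and not in every library with Tgfbr1. In bulk tissue, fewer cells of a type and less RNA per cell cannot be told apart. All 8 listed microglial markers were detected in every group, and none was at 0. Their summed level in Ch25h+/+ mice lay between 334 and 351 CPM without tau and between 517 and 646 CPM with tau. In Ch25h-/- mice it lay between 317 and 357 CPM without tau and between 322 and 404 CPM with tau. With tau in Ch25h+/+ mice 5 of the 8 rose, beside 1.47% of all genes called higher. Among them were C1qa, a complement component (log2 fold change 1.35), and Csf1r, a growth factor receptor (0.50). Of the 8, 6 fell with Ch25h loss in Tau+ mice, beside 2.40% of all genes called lower. Those that fell included C1qa (-1.54) and Cx3cr1, the fractalkine receptor (-0.43). In Ch25h+/+ Tau+ replicate 1 the microglial sum was 517 CPM, above all Tau- libraries. Its Tgfbr1 level, 23.7 CPM, lay below all Ch25h+/+ Tau- libraries, and its astrocyte marker sum, 2765 CPM, was the lowest of the 16. The part of microglial and astrocyte markers in the results on Tgfb1, Tgfbr1, Tgfbr2 and Nrros was not tested.

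Set against this marker sum, Tgfb1 was nearly level and Nrros was not. Per 100 CPM of microglial markers, Tgfb1 was 2.34 ± 0.297 without and 2.62 ± 0.233 with tau in Ch25h+/+ mice, and 2.49 ± 0.457 without and 2.44 ± 0.201 with tau in Ch25h-/- mice (SD, n = 4 each). Tgfbr2 was 6.83 ± 0.613, 6.24 ± 0.452, 6.81 ± 0.637 and 7.31 ± 0.414 in the same order. Tgfbr1 was 7.20 ± 0.041, 6.36 ± 1.20, 7.79 ± 0.756 and 8.23 ± 1.004. Nrros was 2.22 ± 0.047, 1.59 ± 0.223, 2.06 ± 0.245 and 1.43 ± 0.283, lower in the Tau+ group of each genotype. In CPM, Nrros had the higher mean with tau in Ch25h+/+ mice, 8.85 against 7.61. The mean marker sum there was 342 CPM without and 561 CPM with tau, and its members moved unequally. Tmem119, P2ry12 and Aif1 were not called with tau, so the ratios depend on which markers weigh most. The ratios are a description and were not tested.

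Across the 16 libraries the log2 level of Tgfb1 ran with the microglial sum at Pearson r = 0.919, that of Tgfbr2 at 0.921, that of Tgfbr1 at 0.743 and that of Nrros at 0.507. With the group means taken out these were 0.583, 0.592, 0.450 and -0.507, so the sign turned for Nrros. The libraries share their group means and these values carry no p. Other markers also moved. Gfap, the astrocyte filament gene, rose with tau in Ch25h+/+ mice (2.46) and fell with Ch25h loss in Tau+ mice (-1.96), the only 1 of 6 astrocyte markers to do so. The mural and fibroblast marker sum lay between 159 and 201 CPM in Ch25h+/+ mice without tau and between 236 and 266 CPM with tau, without overlap, and 1 of its 5 genes, Vtn, rose (0.51). In Ch25h-/- mice with tau the sum lay between 200.1 and 226 CPM, below all Ch25h+/+ Tau+ libraries, and Vtn fell with Ch25h loss there (-0.46). Border macrophage markers summed to at most 14.8 CPM in any library.

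**Figure D4:**
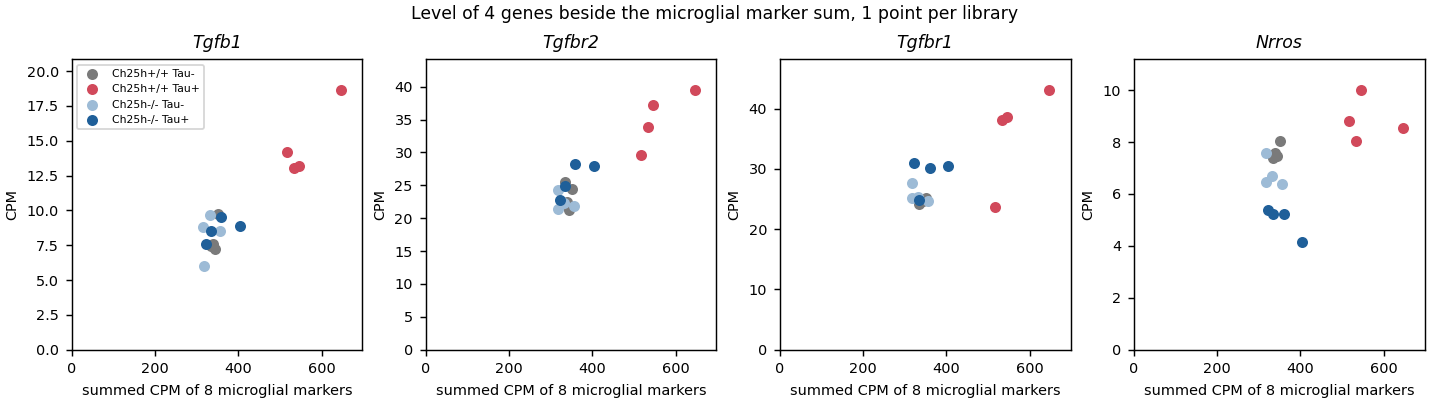
Level of Tgfb1, Tgfbr2, Tgfbr1 and Nrros in CPM (y axis) against the summed CPM of 8 microglial markers (x axis), 1 point per library, coloured by group, with both axes from 0. The Ch25h+/+ Tau+ libraries lie apart at 517 to 646 CPM of markers, with the highest Tgfb1 and Tgfbr2, and the lowest Nrros points belong to Ch25h-/- Tau+ libraries at 322 to 404 CPM of markers.

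Beyond the 10 genes, 75 others of the pathway were followed in 5 lists, and 73 were tested. With tau in Ch25h+/+ mice 8 of the 73 rose and 0 fell, beside 1.56% of all genes called, with a median log2 fold change of 0.18. With tau in Ch25h-/- mice 0 of the 73 were called by edgeR (4 at an unadjusted p under 0.05), with a median of 0.07. With Ch25h loss in Tau+ mice 1 rose and 8 fell (median -0.15), beside 3.55% of all genes called. At an unadjusted p under 0.05 stood 31.5%, beside 23.9% of all genes. Only 2 calls were left in a fit of the 8 Tau+ libraries, and 0 with the class covariate. Leaving out Ch25h+/+ Tau+ replicate 4 or Ch25h-/- Tau+ replicate 3 also left 2, so the falls named below rest on single libraries. In Tau- mice 0 of the 73 were called by edgeR and 4 by DESeq2 (median 0.01), which called 6.34% of all genes there. The 16 of 73 at an unadjusted p under 0.05 in Tau- mice, 21.9%, stood beside 20.9% of all genes.

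Among the 16 tested genes of the latent complex and its activation, 2 rose with tau in Ch25h+/+ mice and 1 fell with Ch25h loss in Tau+ mice. The shares of all genes called were 1.47% higher and 2.40% lower, in that order. Itgb5, a chain of another integrin that binds latent TGF-beta, lay between 58.2 and 66.9 CPM in Ch25h+/+ Tau- libraries and between 72.8 and 100.2 CPM in Ch25h+/+ Tau+ libraries. Its Ch25h-/- libraries lay lower, between 44.5 and 57.0 CPM without tau and between 52.2 and 57.4 CPM with tau. It rose with tau by 0.45 on the log2 scale (edgeR adjusted p = 0.0140) and fell with Ch25h loss by 0.62 (edgeR adjusted p = 0.00169). Mmp2, a matrix protease, rose with tau (0.88, edgeR adjusted p = 0.0229), from 2.49 to 3.45 CPM in Tau- libraries to between 3.70 and 6.91 CPM in Tau+ libraries. The list's median was 0.16 with tau in Ch25h+/+ mice and -0.08 with Ch25h loss in Tau+ mice.

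Of 8 co-receptors and receptor modulators, Cd109 was the only 1 called. The share of all genes called was 1.56% with tau in Ch25h+/+ mice and 3.55% with Ch25h loss in Tau+ mice. Cd109, a surface protein that binds TGF-beta and dampens its signal, lay between 0.756 and 1.39 CPM in Ch25h+/+ mice without tau and between 1.49 and 3.41 CPM with tau (1.17 on the log2 scale, edgeR adjusted p = 0.0200). In Ch25h-/- mice the order was the other way, 1.62 to 1.93 CPM without tau and 1.06 to 1.36 with tau (-0.61, edgeR adjusted p = 0.999984). With Ch25h loss in Tau+ mice it fell (-1.14, edgeR adjusted p = 0.0269), and its interaction of -1.77 had an edgeR adjusted p of 0.10005. Of 18 other SMADs, partners and inhibitors, 0 were called with tau in Ch25h+/+ mice by edgeR (2 at an unadjusted p under 0.05), and Usp15, a deubiquitinase of receptor SMADs, rose with Ch25h loss in Tau+ mice (0.26, edgeR adjusted p = 0.0497).

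Textbook TGF-beta targets had the largest list median with tau in Ch25h+/+ mice, 0.48, with 1 of 16 called, beside 1.56% of all genes. The called gene was Fn1, fibronectin (0.63, edgeR adjusted p = 0.0357). It lay between 36.2 and 52.9 CPM without tau and between 60.4 and 77.8 CPM with tau. With Ch25h loss in Tau+ mice the list's median was -0.53, and Id3, an inhibitor of differentiation, fell (-0.62, edgeR adjusted p = 0.0399), from 30.4 to 49.8 CPM to 22.7 to 29.2 CPM. Fn1 was -0.09 there (edgeR adjusted p = 0.755), with 55.5 to 74.6 CPM in Ch25h-/- Tau+ libraries. Mural and fibroblast markers, which cells that make matrix also carry, were higher in Ch25h+/+ Tau+ libraries than in either of the groups they were compared with, as given above, and their part in these list values was not tested.

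Of 15 microglial genes known to depend on TGF-beta, 4 rose with tau in Ch25h+/+ mice and 5 fell with Ch25h loss in Tau+ mice. The shares of all genes called were 1.47% higher and 2.40% lower in these comparisons, in that order. Csf1r, the receptor for microglial survival factors, rose by 0.50 (edgeR adjusted p = 0.00153) and fell by 0.47 (0.00404). Cx3cr1 rose by 0.51 (0.0229) and fell by 0.43 (0.0462). Pros1, a bridging ligand for phagocytosis, rose by 0.72 (0.00245) and fell by 0.49 (0.0352). Tmem119, a microglial surface protein, was 0.02 with tau in Ch25h+/+ mice (0.990) and fell with Ch25h loss by 0.39 (0.0278), and P2ry12, a purinergic receptor of homeostatic microglia, was 0.17 and 0.23 in the same comparisons, short of the threshold. This list shares 5 genes with the 8 microglial markers above, so it is not a separate observation of the pathway.

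**Figure D5:**
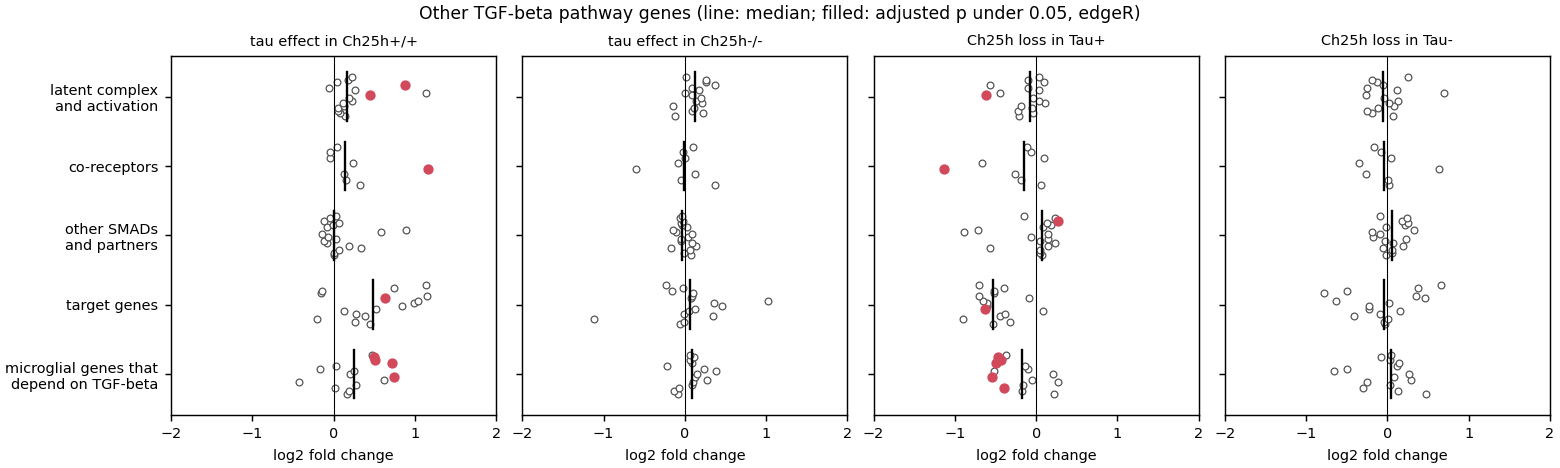
Log2 fold change (x axis) of the 73 tested pathway genes in 5 lists (y axis) for the 4 comparisons between groups, 1 point per gene, with the list's median as a line and filled points for an edgeR adjusted p under 0.05. Filled points lie to the right for tau in Ch25h+/+ mice, 8 in all, and mostly to the left for Ch25h loss in Tau+ mice, and the 2 other comparisons have none.

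On a scale that divides CPM by the exon length in kilobases, which allows levels of different genes to be set side by side, Smad3 had the highest level of the 10, at 18.1 ± 1.95 (SD over 16 libraries). Smad7 followed at 7.57 ± 1.57, Itgb8 at 5.59 ± 1.09, Tgfb3 at 4.58 ± 0.495 and Tgfbr1 at 4.41 ± 0.927. Tgfbr2 stood at 3.26 ± 0.694, Smad2 at 3.06 ± 0.244, Tgfb2 at 2.44 ± 0.680, Tgfb1 at 1.97 ± 0.648 and Nrros at 1.69 ± 0.367. These means pool the 4 groups, and the order below Smad7 differed between groups. Among several such exchanges, in Ch25h+/+ Tau+ libraries Tgfb1, at 2.93, was above Tgfb2, at 2.49, and in Ch25h+/+ Tau- libraries Nrros, at 1.82, was above Tgfb1, at 1.59. Neighbours in this order from Smad7 down overlap within their SD, so their order is not fixed by these data.

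The genes most like each of the 10 across the 16 libraries differed from member to member. Likeness was Pearson's r of log2 levels, over 13959 genes whose mean log2 CPM was 1 or more, and is a description with no p, since libraries of a group share their group mean. The choice of genes depended on the measure: by Spearman's rho the same 3 genes came out for 1 of the 10 members (Tgfb2), 1 of the 3 for 7 members and none of the 3 for Nrros and Tgfbr1, while log2(CPM + 1) kept all 3 for 10 of 10. For Tgfb1 they were Lamp1, a lysosomal membrane protein (r = 0.933, and 0.849 with group means taken out), Cmtm6 (0.927) and Tnfrsf1a, a tumour necrosis factor receptor (0.920). For Tgfbr2 they were Cd9 (0.943), Itgax, an integrin chain of activated microglia and dendritic cells (0.939), and Slc20a2 (0.934). For Tgfbr1 they were Msn, moesin (0.936), Tent5c (0.903) and Nckap1l, an actin regulator of blood cells (0.888).

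Nrros had other neighbours, Wdr81 (0.860), 0610009L18Rik (0.836) and Kifc3 (0.810), with 0.608, 0.647 and 0.515 once group means were taken out. For Tgfb2 they were Fam161a (0.946), Dnah6, a dynein of motile cilia (0.938), and Cachd1 (0.929), and for Itgb8 Ankib1 (0.949), Tmf1 (0.927) and Scaf11 (0.914). For Smad7 they were Pim3 (0.927), Ccdc85c (0.926) and Zfp316 (0.918). The gene most like Tgfb3 was Gdpd5 (0.815), that most like Smad2 was Cntnap4 (0.889) and that most like Smad3 was Elfn2 (0.809). Among the 10 themselves the highest values were Tgfb1 with Tgfbr2 at 0.881, Tgfbr1 with Tgfbr2 at 0.832 and Tgfb1 with Tgfbr1 at 0.673. With group means taken out these became 0.512, 0.638 and 0.195, and the highest were Itgb8 with Tgfbr1 at 0.771, Tgfb2 with Itgb8 at 0.748 and Tgfb2 with Tgfbr1 at 0.640.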

How the data were processed

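RNA was measured by bulk sequencing in 16 libraries. Per the labels' protocols, RNA came from a PureLink column kit and libraries from a SMARTer mRNA kit. The authors deposited 1 whole-number count per gene and library, with no normalization. The submitters' processing notes name STAR 2.7 and the builds GRCm38 and mm10. The counting program and its use of strand are not given in the sources used here.

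From these counts, edgeR 4.0.16 (R 4.3.3; TMM, filterByExpr, quasi-likelihood F test, two-sided) fitted 1 mean per group over all 16 libraries, with Benjamini-Hochberg adjustment over 17736 genes at 0.05. CPM are on TMM-scaled totals, and correlations use log2(CPM + 0.5). Intervals are 95%. Counts carry no molecular identifiers, so count limits cover counting error only. Positions are from GENCODE M21. Of the genes tested, 99.2% had a GC value. The table held 105 repeated symbols.

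Groups come from the genotype label. The labels do not say that libraries of a group came from separate mice, so p-values measure the spread between these libraries, which may be technical. No 2 replicates were alike within sampling noise (chi-square per degree of freedom 8.00 to 37.9).

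The members and lists were chosen with earlier results of these data known. All members are named in every comparison, with pathway genes past the threshold (at most the 4 of smallest p per list) and the 3 genes most like each member. In both microglial lists, 1 of the called genes is counted but not named here. DESeq2 1.42.0, limma 3.58.1 and other settings were tried as alternatives.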

Additional observations from a re-analysis of the deposited data

Results flagged for a closer look

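In the 40 sets of 4 libraries (10 genes in 4 groups), 3 had a highest or lowest library whose gap to the next, divided by the range, was above Dixon's 95% limit for 4 samples. Chance marks about 1 in 20 such sets. Tgfb1 in Ch25h+/+ Tau- had 1 high library at 9.75 CPM, with the next at 7.62 CPM (gap over range 0.853). Nrros in Ch25h-/- Tau+ had 1 low library at 4.16 CPM, with the next at 5.24 CPM (0.875). Tgfbr1 in Ch25h-/- Tau+ had 1 low library at 24.8 CPM, with the next at 30.2 CPM (0.879), and this was replicate 1, the rRNA-poor library of that group.

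The tau effect on Nrros went in opposite directions in the 2 genotypes, with no overlap between Tau+ and Tau- libraries in either on TMM-scaled CPM. In Ch25h+/+ mice the groups overlapped on total-count CPM (7.97 in Tau- and 7.96 in Tau+), and that tau effect had an edgeR adjusted p of 0.647. The difference between the effects was -0.65 on the log2 scale, and its test was not past the threshold (edgeR adjusted p = 0.299).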

How the results depend on the processing

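The alternatives were other scaling, filters and tools, only the 8 libraries compared, covariates for the class of ribosomal RNA content (class) and for choroid plexus, GC-corrected offsets and each library left out. The fits within the rRNA-rich or the rRNA-poor libraries were added after seeing the data, and in Tau- mice no fit within a class was possible for Ch25h loss. For the 6 gene calls, 153 alternative values held 0 reversals and 20 that missed the threshold, as given in the report. Depth limits Tgfb1 and Nrros most, with 64 to 399 counts per library. Among all genes, Ch25h loss in Tau+ mice called 203 higher and 426 lower, and 31 and 171 with GC-corrected offsets. The class covariate left 1 and 9 and the rRNA-poor libraries 0 and 3, so in these 2 fits nearly all calls over all genes were lost. No paired analysis was possible because the labels give no replicate numbers that tie libraries across groups.

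Counts of the 10 genes called changed as follows. With Ch25h loss in Tau+ mice (3 called) the class covariate and the rRNA-poor libraries gave 0, limma-voom 5 (with 1883 of all genes called, against 629), and leaving out a library 1 to 4, with 1 without Ch25h+/+ Tau+ replicate 4 or Ch25h-/- Tau+ replicate 3. With Ch25h loss in Tau- mice (0 called) DESeq2, limma-voom, no filter and only 8 libraries each gave 1, and leaving out a library 0 to 1. The same settings called 1124, 1388, 522 and 1101 of all genes, against 182. Of the other pathway genes, tau in Ch25h+/+ mice called 16 with no filter, 5 with only 8 libraries and 3 to 10 with a library left out. Of all genes these settings called 1.14%, 1.19% and 0.892% to 1.66%, against 1.56% in the main fit. Ch25h loss in Tau+ mice called 0 with the class covariate, 0 in the rRNA-poor libraries, 2 with only 8 libraries and 2 to 10 with a library left out. The share of all genes called for Ch25h loss in Tau+ mice was 0.671% with only 8 libraries and 0.602% to 9.42% with a library left out, against 3.55%. Ch25h loss in Tau- mice called 4 with DESeq2, 5 with limma-voom, 3 with no filter, 4 with only 8 libraries and 0 to 5 with a library left out. The interaction called 1 with DESeq2, which called 0.310% of all genes there, and 0 to 1 with a library left out. The cause was not tested.

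Among the 44 values that were not called, 66 of 1107 alternative values had the other sign, as log2 fold changes. With the class covariate, whose effect was set by Ch25h-/- Tau+ replicate 1 against the rest of its group, Tgfb2 was 0.0067 and Smad7 -0.10 for tau in Ch25h-/- mice. For Ch25h loss in Tau+ mice Itgb8 was -0.017, Smad3 -0.13 and Smad7 0.033, with the same values in the rRNA-poor libraries. For Ch25h loss in Tau- mice Tgfb2 was -0.55, Itgb8 -0.11, Tgfbr1 -0.24, Smad2 -0.041 and Smad7 0.19, and the interaction of Smad7 was -0.16. In the rRNA-rich libraries Smad7 was -0.11 for tau in Ch25h-/- mice. With GC-corrected offsets Tgfb3 was 0.015 and Smad2 -0.034 for Ch25h loss in Tau+ mice, and Tgfbr1 -0.12 and Smad2 -0.063 in Tau- mice. With limma-voom Smad2 was -0.042 for tau in Ch25h+/+ mice, Smad7 -0.0051 for tau in Ch25h-/- mice, and the interactions of Itgb8 and Smad7 were -0.044 and -0.14. The interaction of Itgb8 was also -0.0045 with DESeq2, -0.044 with the choroid plexus covariate, -0.020 with a mean of at least 50 counts, -0.0028 with no filter and -0.0060 with relative log expression factors.

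With a library left out, the sign changed within these ranges. For tau in Ch25h+/+ mice they were -0.0052 to 0.33 for Tgfb2, -0.11 to 0.026 for Tgfb3 and -0.072 to 0.081 for Smad2. For tau in Ch25h-/- mice they were -0.069 to 0.14 for Tgfb1, -0.0033 to 0.059 for Smad2 and -0.11 to 0.19 for Smad7. For Ch25h loss in Tau+ mice they were -0.35 to 0.063 for Tgfb2, -0.12 to 0.021 for Tgfb3 and -0.064 to 0.082 for Smad3. For Ch25h loss in Tau- mice they were -0.045 to 0.17 for Tgfb1 and -0.038 to 0.11 for Smad2. For the interaction they were -0.15 to 0.083 for Itgb8, -0.049 to 0.11 for Smad2 and -0.17 to 0.12 for Smad7.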
